A study of Mus musculus with 6 samples.

Results

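The Wnt and beta-catenin pathway was followed through 44 genes, chosen by name as its ligands, receptors, cytoplasmic and nuclear components and targets, among the 22380 gene identifiers listed in each library. All 44 were matched to an identifier by gene symbol, and 34 of them reached a mean of at least 10 normalized counts over the 6 libraries and could be tested. RNA came from mouse embryonic stem cells (mESC), in 3 *Ctrl* and 3 *Tet iTKO* libraries. The paper states for its experiments in general that each genotype had 3 mESC populations, derived from 3 embryos. For these data it names 3 independent experiments, and the sample titles give replicate numbers only. Each replicate is called a line here, and the spread between replicates is taken as a spread between lines. The *Ctrl* lines carried CreERT2 wt/ki and the reporter Gt(ROSA)26Sor<tm1Ytchn>/J wt/ki, which turns on a green histone after recombination. The *Tet iTKO* lines carried the same alleles together with Tet1/2/3 fl/fl, and their strain label also lists the control genotype. Every line of either group received 1 µM tamoxifen for 2.5 days and was cultured for 4 further days, so that both groups had active Cre at some time and RNA was taken at day 6.5. All lines grew with CHIR99021, an inhibitor of the kinase GSK3, and PD0325901, an inhibitor of MEK, on fibroblast feeders, and live CD326+ GFP+ Thy1.2- cells were sorted. Both groups were therefore cultured with a drug that stabilises beta-catenin, and a group without GSK3 inhibition was not analysed here. The TET proteins oxidise the methyl group of 5-methylcytosine, which in the mouse genome lies mostly in CpG dinucleotides.

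In canonical Wnt signalling, secreted and lipid-modified Wnt proteins bind a Frizzled receptor and an LRP co-receptor, and Dishevelled then disables a destruction complex of AXIN, APC, GSK3 and casein kinase that otherwise marks beta-catenin for degradation. Stabilised beta-catenin enters the nucleus, binds TCF/LEF factors on DNA and replaces corepressors of the Groucho/TLE family with co-activators. In mESC, inhibition of GSK3 is known to act to a large part by relieving repression of naive genes by TCF7L1, and in the early embryo canonical Wnt signals are known for driving primitive streak and mesoderm formation.

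The summed normalized counts of a library lay between 3964824 and 4219665, and the *Ctrl* libraries listed 13431 to 13539 genes above 0 against 14024 to 14363 in *Tet iTKO*. Of 10 mESC markers, 9 could be tested, and the summed level of the list was 27589 to 28013 normalized counts in *Ctrl* and 23836 to 24883 in *Tet iTKO*, with *Fut4* at 2 or fewer throughout. Of the 9, 3 were higher (*Epcam*, *Esrrb* and *Klf4*) and 4 lower (*Pou5f1*, *Nanog*, *Zfp42* and *Dppa5a*). *Dppa5a*, with means of 11226 and 8573, accounted for most of the drop in the sum. After the correction for GC content and length described below, *Epcam* stayed higher and *Pou5f1*, with means of 5490 and 4489, stayed lower (-0.23, limma adjusted p = 8.3e-05). *Esrrb*, *Klf4*, *Nanog* and *Zfp42* did not pass after it, and *Dppa5a* and *Tdgf1* were called higher. The 12 markers of feeder fibroblasts summed to 295 to 322 in *Ctrl* and 515 to 582 in *Tet iTKO*. Of the 5 tested, 3 (the collagen genes *Col1a1*, *Col1a2* and *Col3a1*) rose, and *Col1a1*, with means of 167 and 311, made up a large part of these sums. *Thy1* and *Loxl1*, also tested, did not pass (log2 differences -0.19 and 0.05, limma adjusted p = 0.69 and 0.95). *Postn* and *Twist2* stayed at 3 or fewer, and none of the 12 was at 0 in every library. Over the list of primed epiblast and early mesendoderm markers the sums were 2082 to 2145 and 2452 to 2644, with 3 of 4 tested genes higher (*Otx2*, *Dnmt3b* and *T*). *Eomes*, with 10, 27 and 23 in *Ctrl* against 31, 36 and 35 in *Tet iTKO*, did not pass (0.84, limma adjusted p = 0.091). *T* and *Eomes* are known to respond to Wnt. *Dnmt3b*, with means of 2045 and 2422, made up most of these sums and did not pass after that correction, and *Otx2* passed in 1 of the 6 fits that left out a line. Primitive endoderm markers summed to 87 to 110 and 157 to 200, with 2 of 4 tested genes higher, of which *Gata4* did not pass after the correction or in 3 of the fits without a line. Trophoblast markers summed to 25 to 49 and 22 to 41, with *Plac1* at 0 in every library, and the 1 tested gene, *Ascl2*, did not pass (-0.58, limma adjusted p = 0.40). Under the filter, members of this list went both ways. *Hand1* and *Cdx2* were at 0 in each *Ctrl* line and at 6, 5 and 6 and at 1, 5 and 2 in *Tet iTKO*. *Krt7*, *Gata3* and *Tfap2a* had lower means in *Tet iTKO*, with overlap. The part of these lists, or of other cells in the sort, in the values below was not tested. Of the targeted genes, *Tet1* had 696, 682 and 716 normalized counts in *Ctrl* against 787, 895 and 753 in *Tet iTKO*. It passed as higher (0.21, limma adjusted p = 0.026), but not after the correction (limma adjusted p = 0.99). *Tet2* had 249, 170 and 230 against 233, 268 and 211 and did not pass (0.14, limma adjusted p = 0.43). *Tet3* had 28, 13 and 13 against 10, 3 and 3. It passed as lower (-1.67, limma adjusted p = 0.035), also after the correction (-2.25, limma adjusted p = 0.0061), but in only 2 of the 6 fits that left out a line. These values do not check the deletion, because reads outside the floxed exons are counted with those inside.

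The start regions of 3 members are shown because they differ in the CpG dinucleotides on which the TET proteins act and in the presence of a TCF/LEF motif. They are the 250 bases before the start of *Axin2* (chr11:108920099-108920348, plus strand), *Lef1* (chr3:131110047-131110296, plus strand, the most upstream of 4 annotated starts) and *Sp5* (chr2:70474673-70474922, plus strand) from RefSeq on GRCm38.p6, written 5′ to 3′ with each CpG in capitals, and none overlapped an exon of its gene in GENCODE M21.
Axin2: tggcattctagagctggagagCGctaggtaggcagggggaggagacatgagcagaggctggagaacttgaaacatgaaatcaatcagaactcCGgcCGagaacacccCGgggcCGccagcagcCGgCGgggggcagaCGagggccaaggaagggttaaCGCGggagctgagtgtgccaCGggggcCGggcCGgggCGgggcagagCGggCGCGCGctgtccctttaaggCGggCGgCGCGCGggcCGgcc
Lef1: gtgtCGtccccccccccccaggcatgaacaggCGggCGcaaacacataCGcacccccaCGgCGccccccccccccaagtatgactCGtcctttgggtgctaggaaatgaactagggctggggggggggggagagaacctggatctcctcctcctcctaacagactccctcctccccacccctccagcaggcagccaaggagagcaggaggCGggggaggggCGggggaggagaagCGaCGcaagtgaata
Sp5: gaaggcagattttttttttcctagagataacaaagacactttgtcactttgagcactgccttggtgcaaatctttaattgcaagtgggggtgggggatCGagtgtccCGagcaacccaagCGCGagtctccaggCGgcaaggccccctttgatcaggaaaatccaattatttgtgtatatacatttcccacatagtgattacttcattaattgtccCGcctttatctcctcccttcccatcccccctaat
The *Axin2* sequence held 24 CpG, more than 88% of all start regions, the *Lef1* sequence 11 and the *Sp5* sequence 6. The RefSeq table held 38 such regions for 28 of the 44 members and 32851 in all, and the median number of CpG was 17 over the members' regions and 6 over all. The core TCF/LEF motif, CTTTGAA or CTTTGAT on either strand, was found in 3 of the 38 regions (7.89%), those of *Dkk1*, *Gsk3a* and *Sp5*, and in 7.48% of all regions. In *Sp5* the match was CTTTGAT, beginning 104 bases before the start. Over the 17 regions of 10 members that rose in *Tet iTKO* there was no match in these 250 bases, which says nothing of sites elsewhere.

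Between *Ctrl* and *Tet iTKO* mESC, 17 of the 34 tested members were higher and 2 were lower at an adjusted p under 0.05 (limma, Benjamini-Hochberg adjustment over the 10524 genes tested). That is 50% and 5.88% of the tested members, where the share over all genes tested was 16.4% higher and 18.4% lower. The members were chosen with earlier results of these data known, so these shares are descriptions and not a test of the pathway. A call as higher with a log2 fold change of 1 or more was reached by 6 of the 34 tested members, against 4.95% of all genes tested. These were *Wnt8a*, *Bcl9l*, *Bcl9*, *Lef1*, *Wls* and *Axin2*. No tested member was called lower by as much, against 1.3% of all. The median log2 fold change of the tested members was 0.39, and 28 of 34 were above 0, beside a median of 0.01 over all genes tested. In 18 of the 34 tested members every *Tet iTKO* line lay above every *Ctrl* line and in 2 every line lay below, where 21.2% and 22.9% of all genes did so. In RNA from whole populations, a change in the number of cells of a kind and a change in RNA per cell cannot be told apart.

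**Figure D1:**
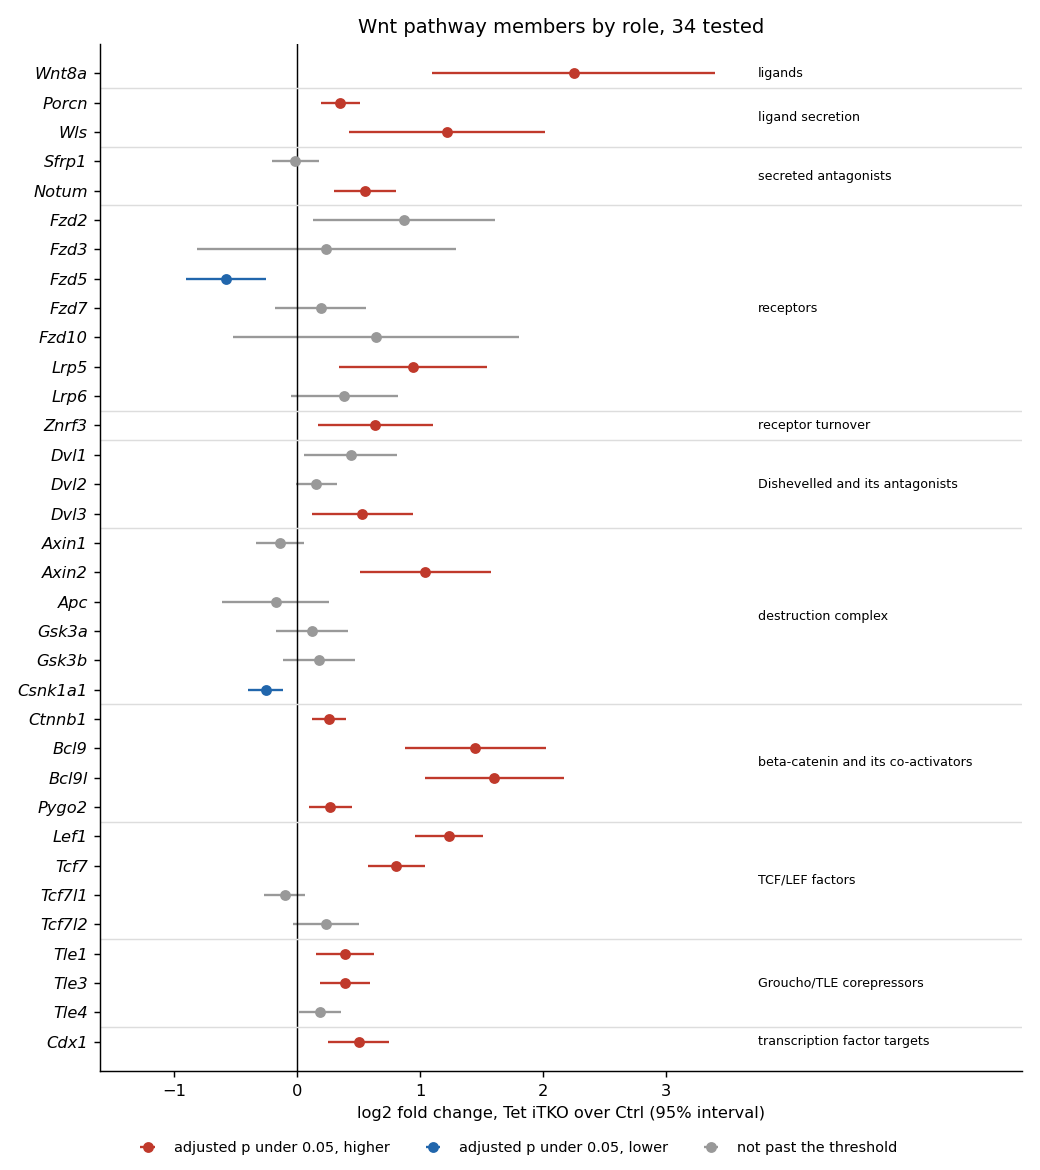
Log2 fold change of *Tet iTKO* over *Ctrl* (x axis, log2 of normalized count + 1) for the 34 tested members, one per line and grouped by role; points are limma estimates and bars their 95% intervals. Of the 34, 17 in red were higher and 2 in blue lower at an adjusted p under 0.05, and 28 points lie above 0.

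Fold changes in these libraries were related to the transcript's base composition and length: over 10457 genes, Spearman's rho with GC content was 0.258 and with log2 length 0.293, across genes and with no p since genes are not replicates. The members have a median GC content of 54.3% and a median exon length of 6 kb, against 50.0% and 4.46 kb for all genes tested. After a loess correction of each library for both properties, 10 members were higher, all of them among the 17, and 4 were lower, beside 13% and 14.1% of all genes, and the median over the members was 0.23. The calls of *Lrp5*, *Znrf3*, *Dvl3*, *Tle1*, *Tle3*, *Pygo2* and *Cdx1* as higher and of *Csnk1a1* as lower did not pass after it, while *Dvl2*, *Axin1* and *Tcf7l1* passed as lower.

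**Figure D2:**
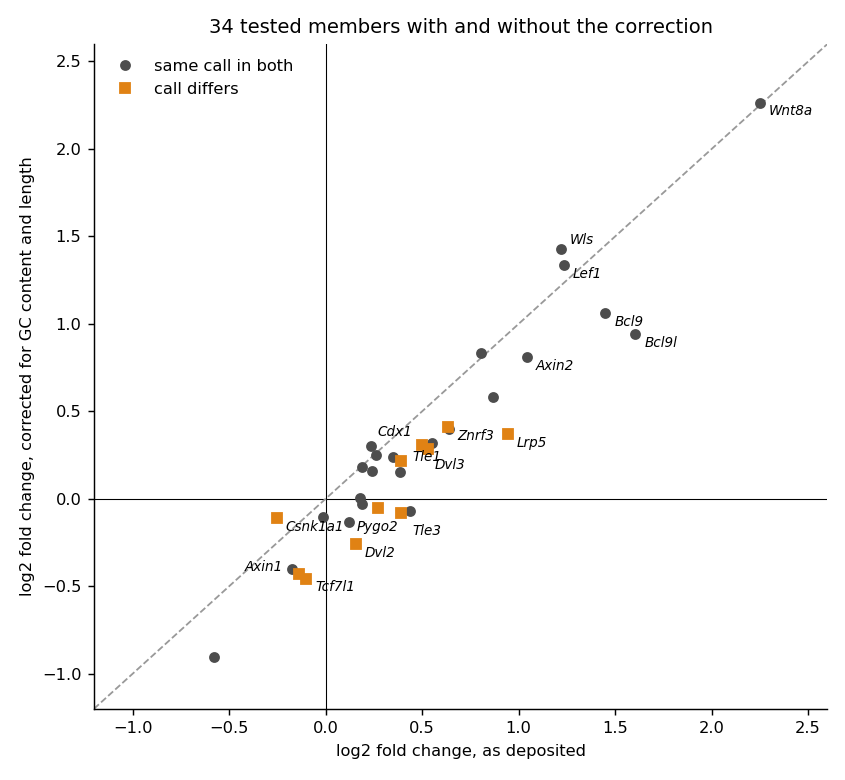
Log2 fold change of each of the 34 tested members from the deposited values (x axis) and after correction for GC content and length (y axis), with the dashed line marking equal values and squares the members whose call differs. *Lef1* and *Wls* gain size, whereas *Bcl9l*, *Lrp5*, *Dvl1*, *Tle3* and *Dvl2* lose 0.4 or more, and *Dvl1*, *Dvl2*, *Fzd7*, *Gsk3a*, *Pygo2* and *Tle3* turn below 0.

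Among the Wnt ligands, *Wnt8a* rose and *Wnt3* was listed above 0 only in *Tet iTKO* lines, both at low levels. *Wnt8a* (ENSMUSG00000012282.2) had 6, 2 and 7 normalized counts in *Ctrl* against 38, 20 and 21 in *Tet iTKO* lines. The groups did not overlap, and this was a log2 fold change of 2.25 (standard error, SE, 0.57, limma adjusted p = 0.0020), which came to 2.27 after the GC and length correction. With a *Ctrl* mean of 5, *Wnt8a* passed the filter through its values in *Tet iTKO*. *Wnt3* (ENSMUSG00000000125.5, chromosome 11 of GRCm38 from 103774150 to 103817957), a ligand needed for the primitive streak, was listed at 0 in each *Ctrl* line and at 11, 9 and 10 in *Tet iTKO*. Set against a floor of 3 normalized counts per library, the smallest value taken as shown at this depth, its mean was at least 3.33-fold higher in *Tet iTKO*. It lay under the filter of the main test, and with no filter limma gave an adjusted p of 0.00071. *Wnt7b*, also under the filter, had 1, 2 and 11 normalized counts in *Ctrl* against 3, 3 and 2 in *Tet iTKO*, groups that overlap.

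Both genes for the release of Wnt proteins rose. *Porcn*, the acyltransferase that attaches the lipid to Wnt proteins, had 580, 605 and 668 normalized counts in *Ctrl* against 858, 765 and 743 in *Tet iTKO*. Every *Tet iTKO* line lay above the *Ctrl* lines (log2 fold change 0.35, SE 0.08, limma adjusted p = 0.00055, but 0.058 when the variance prior had no trend). *Wls*, the carrier that takes Wnt proteins to the cell surface, had 8, 58 and 49 in *Ctrl* against 63, 75 and 68 in *Tet iTKO*. Its log2 fold change of 1.22 (SE 0.39, limma adjusted p = 0.014) rested on *Ctrl* line 1: without that line it was 0.36 (limma adjusted p = 0.31). Without *Tet iTKO* line 1 or line 3 it was 1.28 and 1.23 (limma adjusted p = 0.051 and 0.056).

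Of the secreted antagonists, *Notum* rose and *Sfrp1* did not differ beyond the spread between lines. *Notum* (ENSMUSG00000042988.4), which removes the lipid from Wnt proteins and is itself a Wnt target in many tissues, had 163, 179 and 222 normalized counts in *Ctrl* against 264, 276 and 282 in *Tet iTKO*. The groups did not overlap (log2 fold change 0.55, SE 0.13, limma adjusted p = 0.00065), and the change was 0.32 after the GC and length correction (limma adjusted p = 0.047). *Sfrp1*, a soluble Frizzled-related protein that binds Wnt, had 418, 400 and 408 in *Ctrl* against 434, 368 and 414 in *Tet iTKO*, with a log2 difference of -0.01 (95% interval -0.20 to 0.17). *Dkk1*, an LRP5/6 antagonist and a common Wnt target, was at 1 in each *Ctrl* line and at 0 in each *Tet iTKO* line, below what this depth can show.

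Of the 5 Frizzled receptor genes tested, *Fzd5* fell and the other 4 did not pass. *Fzd5* (ENSMUSG00000045005.8) had 139, 179 and 218 normalized counts in *Ctrl* against 110, 131 and 112 in *Tet iTKO*. All *Tet iTKO* lines lay below the *Ctrl* lines and *Fzd5* fell by 0.58 on the log2 scale (SE 0.16, limma adjusted p = 0.0048), or by 0.90 after the GC and length correction. Without *Ctrl* line 3 the difference was -0.42 (limma adjusted p = 0.065), and with no trend in the variance prior the adjusted p from limma was 0.071. *Fzd7* had 91, 109 and 123 in *Ctrl* against 93, 144 and 136 in *Tet iTKO* (log2 difference 0.19, 95% interval -0.18 to 0.56, limma adjusted p = 0.45, and -0.032 after the correction). The log2 ratio of *Fzd5* to *Fzd7* within a line averaged 0.71 ± 0.11 (SD, n = 3) in *Ctrl* against -0.06 ± 0.27 (SD, n = 3) in *Tet iTKO*, with no overlap. The exact two-sided permutation test gave p = 0.1, the smallest that 3 lines against 3 allow, and 0.18 after adjustment over the 9 ratios tested.

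*Fzd2* had 18, 19 and 24 normalized counts in *Ctrl* against 41, 54 and 24 in *Tet iTKO* (log2 difference 0.87, limma adjusted p = 0.062). *Tet iTKO* line 3 matched the highest *Ctrl* line, and without it the difference was 1.18 (limma adjusted p = 0.023). *Fzd3* and *Fzd10* had means of 15 and 11.3 in *Ctrl* and 16 and 15.3 in *Tet iTKO*, with log2 differences of 0.24 and 0.64 (limma adjusted p = 0.76 and 0.42). Another 3 Frizzled genes lay under the filter. *Fzd1* had 7, 3 and 0 normalized counts in *Ctrl* against 18, 7 and 2 in *Tet iTKO*, and *Fzd8* had 10, 6 and 3 against 8, 1 and 8, so that both overlapped between groups. *Fzd4* had 2, 0 and 0 in *Ctrl* against 3, 5 and 2 in *Tet iTKO*.

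The co-receptor genes were *Lrp5* and *Lrp6*. *Lrp5* had 29, 67 and 24 normalized counts in *Ctrl* against 81, 63 and 68 in *Tet iTKO*. *Ctrl* line 2 overlapped with the *Tet iTKO* lines, with a log2 fold change of 0.94 (SE 0.30, limma adjusted p = 0.012). The call did not pass after the GC and length correction (0.37, limma adjusted p = 0.38), nor without *Ctrl* line 1, *Ctrl* line 3 or *Tet iTKO* line 1 (0.79, 0.66 and 0.84). *Lrp6* had 68, 62 and 56 in *Ctrl* against 82, 82 and 79 in *Tet iTKO*: the groups did not overlap, but the log2 difference of 0.38 did not pass (95% interval -0.05 to 0.82, limma adjusted p = 0.17). The log2 ratio of *Lrp5* to *Lrp6* overlapped between groups (exact permutation p = 0.4).

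*Znrf3* and *Rnf43* encode ubiquitin ligases that remove Frizzled receptors from the surface and are themselves Wnt targets. *Znrf3* had 60, 42 and 55 normalized counts in *Ctrl* against 71, 89 and 84 in *Tet iTKO*. Its groups did not overlap (log2 fold change 0.64, SE 0.23, limma adjusted p = 0.030), but the call did not pass after the GC and length correction (0.41, limma adjusted p = 0.20). It did not pass either without *Ctrl* line 2, *Tet iTKO* line 2 or *Tet iTKO* line 3 (0.49, 0.57 and 0.61). *Rnf43*, under the filter, had 0, 0 and 2 in *Ctrl* against 9, 5 and 0 in *Tet iTKO*, with overlap.

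**Figure D3:**
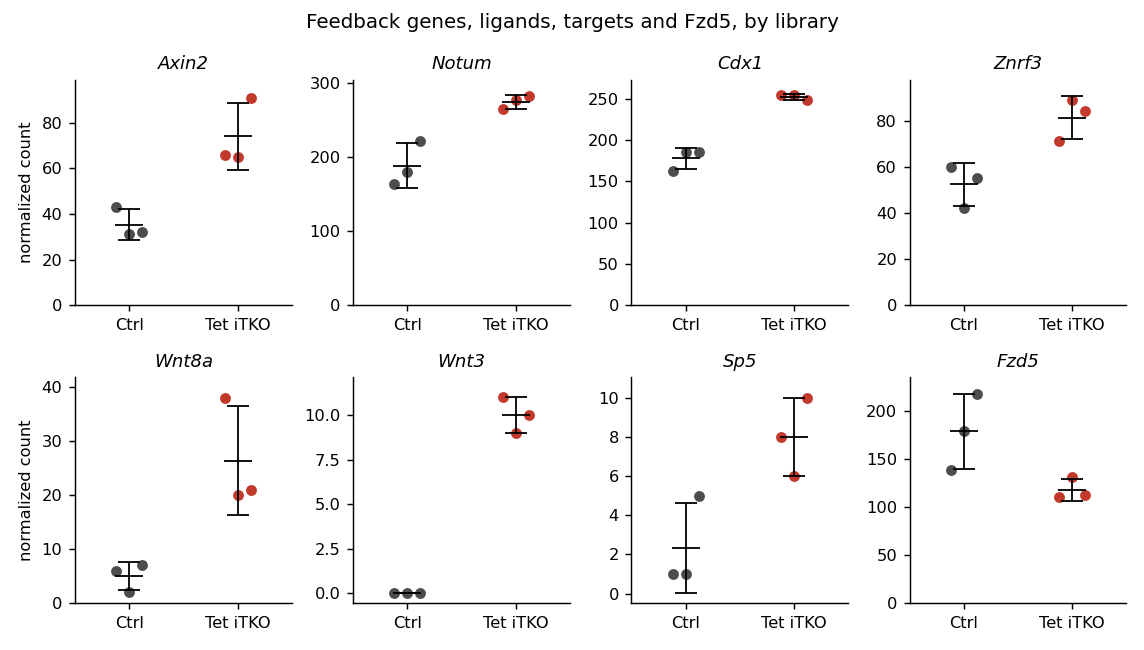
Normalized counts (y axis, linear, own scale in each panel) of *Axin2*, *Notum*, *Cdx1*, *Znrf3*, *Wnt8a*, *Wnt3*, *Sp5* and *Fzd5* in the 3 *Ctrl* (grey) and 3 *Tet iTKO* (red) lines; dots are lines, and horizontal marks and bars the mean ± SD. In 7 panels all red dots lie above the grey ones, and in that of *Fzd5* all lie below.

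Dishevelled carries the signal from the receptor to the destruction complex, and *Dvl2* was the most abundant of its 3 genes per length of exon. *Dvl1* had 76, 133 and 91 normalized counts in *Ctrl* against 121, 146 and 130 in *Tet iTKO* (log2 difference 0.44, limma adjusted p = 0.065; without *Ctrl* line 2, 0.66 and 0.0093), and after the correction the difference was -0.071. *Dvl2* had 544, 587 and 671 against 658, 662 and 682, and its difference of 0.16 (limma adjusted p = 0.13) turned to -0.26 after the GC and length correction (limma adjusted p = 0.011). Without *Ctrl* line 3 the uncorrected difference was 0.24 (limma adjusted p = 0.033). With quantile normalization *Dvl2* passed as higher. *Acadvl*, which overlaps *Dvl2* on the opposite strand, had 48, 78 and 83 in *Ctrl* against 79, 89 and 96 in *Tet iTKO*, and these libraries do not mark the strand. *Dvl3* had 77, 59 and 68 in *Ctrl* against 103, 88 and 104 in *Tet iTKO*. That is a log2 fold change of 0.53 without overlap (SE 0.20, limma adjusted p = 0.040), and it passed only without *Ctrl* line 1 among the fits that left out a line: without *Ctrl* line 2 or 3 it was 0.43 and 0.53, and without *Tet iTKO* line 1, 2 or 3 it was 0.49, 0.61 and 0.49. The ratio of *Dvl3* to *Dvl2* gave an exact permutation p of 0.2. The Dishevelled antagonists *Nkd1* (1, 0 and 10 against 8, 2 and 3) and *Nkd2* (1, 3 and 3 against 3, 21 and 5) lay under the filter and overlapped.

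Within the destruction complex, the scaffold *Axin2* rose, *Csnk1a1* fell, and the other 4 genes did not pass. *Axin2* (ENSMUSG00000000142.9, chromosome 11 of GRCm38 from 108920349 to 108950783), a feedback inhibitor often used as a readout of beta-catenin activity, had 43, 31 and 32 normalized counts in *Ctrl* against 66, 65 and 91 in *Tet iTKO*. The lines did not overlap and the ratio of means was 2.09 (log2 fold change 1.04, SE 0.26, limma adjusted p = 0.0020), with 0.81 after the GC and length correction (limma adjusted p = 0.020). *Axin1*, the constitutive scaffold, had 404, 403 and 440 in *Ctrl* against 383, 333 and 421 in *Tet iTKO*, a log2 difference of -0.14 (limma adjusted p = 0.29) that became -0.43 after the correction (limma adjusted p = 0.00069). The log2 ratio of *Axin2* to *Axin1* averaged -3.53 ± 0.29 (SD, n = 3) in *Ctrl* against -2.35 ± 0.16 (SD, n = 3) in *Tet iTKO*. All 3 *Tet iTKO* lines had the higher ratio (exact permutation p = 0.1, adjusted 0.18), and per kb of exon *Axin1* stood at 109 ± 5.51 in *Ctrl* and 99.0 ± 11.5 in *Tet iTKO*, far above the 6.42 ± 1.21 and 13.4 ± 2.68 of *Axin2* (SD, n = 3).

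*Csnk1a1*, the casein kinase that first phosphorylates beta-catenin, had 1019, 962 and 943 normalized counts in *Ctrl* against 867, 820 and 767 in *Tet iTKO*. It fell by 0.25 on the log2 scale without overlap (SE 0.07, limma adjusted p = 0.0044), and the difference after the correction was -0.11 (limma adjusted p = 0.24). With no trend in the variance prior it did not pass either (limma adjusted p = 0.088). The targets of CHIR99021, *Gsk3a* and *Gsk3b*, had 163 ± 8.5 and 152 ± 20.2 (SD, n = 3) in *Ctrl* against 180 ± 31.8 and 171 ± 8.66 (SD, n = 3) in *Tet iTKO*. Their log2 differences were 0.12 (95% interval -0.17 to 0.42) and 0.18 (95% interval -0.11 to 0.47), that of *Gsk3a* turned to -0.13 after the correction, and the ratio of *Gsk3a* to *Gsk3b* differed by -0.06 on the log2 scale (exact permutation p = 0.7). *Apc*, the large scaffold of the complex, had 89, 75 and 90 in *Ctrl* against 56, 95 and 78 in *Tet iTKO*, so that *Tet iTKO* lines lay on both sides of *Ctrl* (log2 difference -0.18, 95% interval -0.61 to 0.26).

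All 4 genes of beta-catenin and its co-activators rose. *Ctnnb1*, the gene for beta-catenin, had 898, 932 and 847 normalized counts in *Ctrl* against 1110, 1014 and 1087 in *Tet iTKO*. The groups did not overlap and the rise was small, 0.26 on the log2 scale (SE 0.07, limma adjusted p = 0.0024) and 0.25 after the GC and length correction. With no trend in the variance prior it did not pass (limma adjusted p = 0.076). *Bcl9* and *Bcl9l* encode paralogous adaptors that bind beta-catenin and hold the PYGO proteins on it. *Bcl9* (ENSMUSG00000038256.9, chromosome 3 of GRCm38 from 97203662 to 97297917) had 58, 21 and 31 in *Ctrl* against 119, 83 and 83 in *Tet iTKO*. *Bcl9l* (ENSMUSG00000063382.5, chromosome 9 of GRCm38 from 44482825 to 44511896) had 35, 19 and 33 in *Ctrl* against 69, 112 and 86 in *Tet iTKO*. Both rose without overlap, with ratios of means of 2.59 and 3.07. The log2 fold changes were 1.45 for *Bcl9* (SE 0.28, limma adjusted p = 9.8e-05) and 1.60 for *Bcl9l* (SE 0.28, limma adjusted p = 2.1e-05), and 1.06 and 0.94 after the correction. Their ratio to each other overlapped between the groups (exact permutation p = 0.8). *Pygo2*, the plant homeodomain protein of this complex, had 509, 622 and 621 in *Ctrl* against 632, 695 and 787 in *Tet iTKO*. Its log2 fold change of 0.27 (SE 0.09, limma adjusted p = 0.014) turned to -0.050 after the correction, and was 0.18 without *Ctrl* line 1 and 0.19 without *Tet iTKO* line 3, neither of which passed.

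Of the 4 TCF/LEF factors, *Lef1* and *Tcf7* rose in every line, whereas *Tcf7l1* and *Tcf7l2* did not pass. *Lef1* (ENSMUSG00000027985.8, chromosome 3 of GRCm38 from 131110471 to 131224356), mostly an activator with beta-catenin and a Wnt target in many tissues, had 104, 131 and 122 normalized counts in *Ctrl* against 273, 273 and 295 in *Tet iTKO*. The lowest *Tet iTKO* value, 273, lay above the highest *Ctrl* value, 131 (ratio of means 2.36, log2 fold change 1.23, SE 0.14, limma adjusted p = 3.2e-09), and the change was 1.34 after the GC and length correction. *Tcf7* (ENSMUSG00000000782.8, chromosome 11 of GRCm38 from 52252371 to 52283014), which encodes TCF1, had 190, 203 and 229 in *Ctrl* against 333, 347 and 411 in *Tet iTKO*. It rose by 0.81 on the log2 scale (SE 0.11, limma adjusted p = 6.6e-07) and by 0.83 after the correction.

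*Tcf7l1*, which encodes the repressor TCF3 of naive genes, had 574, 553 and 602 normalized counts in *Ctrl* against 543, 508 and 561 in *Tet iTKO*. The lines overlapped and the log2 difference was -0.10 (95% interval -0.27 to 0.06, limma adjusted p = 0.36), but after the correction it was -0.46 (limma adjusted p = 3e-05). *Tcf7l2* had 172, 170 and 178 in *Ctrl* against 212, 182 and 221 in *Tet iTKO*, which do not overlap, with a log2 difference of 0.24 (95% interval -0.03 to 0.50, limma adjusted p = 0.17). Against *Tcf7l1* in the same line, the log2 ratio was higher in all 3 *Tet iTKO* lines for *Lef1*, by 1.34, for *Tcf7*, by 0.91, and for *Tcf7l2*, by 0.34. Each of these 3 ratios gave an exact permutation p of 0.1, the smallest possible, and 0.18 after adjustment.

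**Figure D4:**
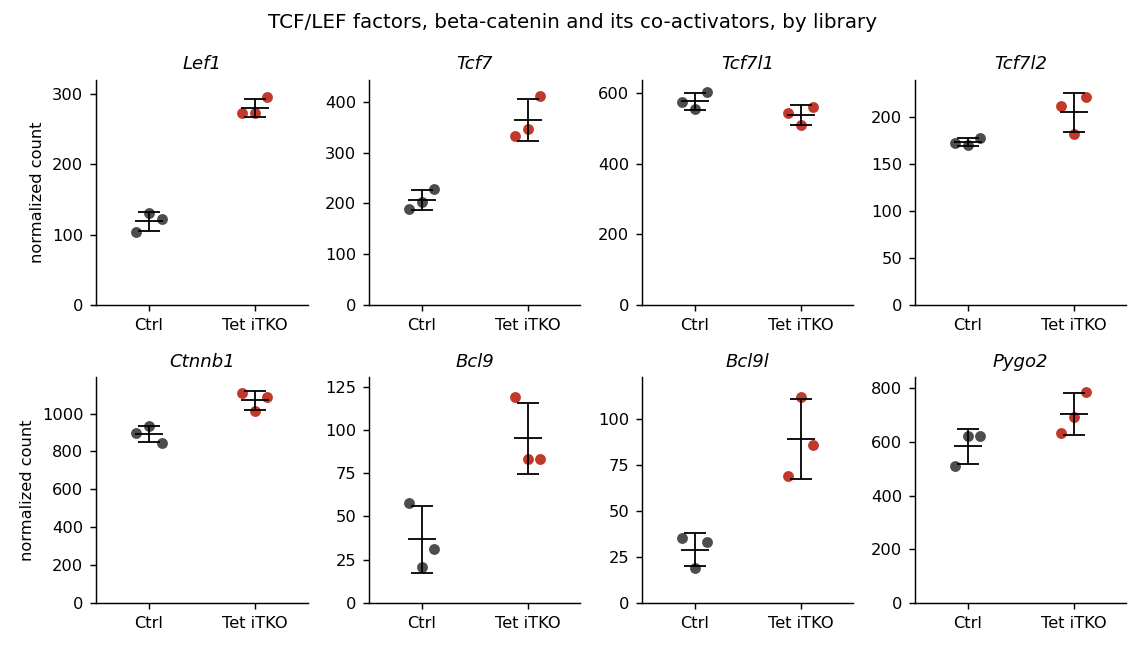
Normalized counts (y axis, linear, own scale in each panel) of the 4 TCF/LEF genes and of *Ctnnb1*, *Bcl9*, *Bcl9l* and *Pygo2* in the 3 *Ctrl* (grey) and 3 *Tet iTKO* (red) lines; dots are lines, and horizontal marks and bars the mean ± SD. The groups overlap only in the panel of *Tcf7l1*, with 574, 553 and 602 in *Ctrl* against 543, 508 and 561 in *Tet iTKO*.

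Levels of different genes were compared as normalized counts per kb of exon, with all annotated exons of a gene joined. On this scale *Tcf7l1* made up 56.7% ± 1.54 (SD, n = 3) of the summed level of the 4 TCF/LEF genes in *Ctrl*, compared with 41.5% ± 1.65 (SD, n = 3) in *Tet iTKO*. The share of *Tcf7* was 30.4% ± 1.41 (SD, n = 3) in *Ctrl* against 41.8% ± 2.08 (SD, n = 3) in *Tet iTKO*, so that in *Tet iTKO* the shares of *Tcf7* and *Tcf7l1* overlapped in range. *Lef1* had 5.23% ± 0.61 (SD, n = 3) and 9.66% ± 0.27 (SD, n = 3), and *Tcf7l2* had 7.63% ± 0.23 and 7.06% ± 0.46 (SD, n = 3). These shares are descriptions with no test, and a gene whose cells use a short isoform is understated by its joined exons. Among all 44 members the levels per kb in *Ctrl* were highest for *Porcn* (206 ± 15.1), *Ctnnb1* (172 ± 8.24) and *Pygo2* (161 ± 17.9; SD, n = 3), and the values of *Ctnnb1* and *Pygo2* do not differ beyond their spread. The same 3 genes led in *Tet iTKO*, with 263 ± 20.3, 206 ± 9.65 and 194 ± 21.5 (SD, n = 3). *Tcf7* stood at place 11 in *Ctrl*, with 79.0 ± 7.56, and at place 5 in *Tet iTKO*, with 139 ± 15.8 (SD, n = 3).

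**Figure D5:**
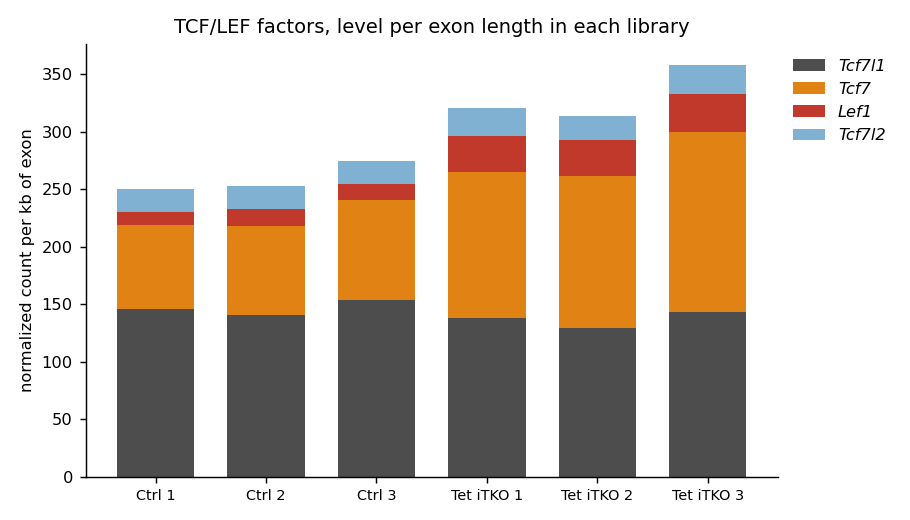
Stacked level of *Tcf7l1*, *Tcf7*, *Lef1* and *Tcf7l2* (y axis, normalized count per kb of joined exon, from 0) in each of the 6 lines (x axis). The *Tcf7l1* part lies between 129.5 and 153.4 in every line, while the *Tcf7* and *Lef1* parts are larger in all 3 *Tet iTKO* lines.

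The Groucho/TLE corepressors, which TCF/LEF factors bind in the absence of beta-catenin, were higher in 2 of 3 cases. *Tle1* had 220, 239 and 281 normalized counts in *Ctrl* against 305, 368 and 298 in *Tet iTKO* (log2 fold change 0.39, SE 0.12, limma adjusted p = 0.0075). *Tle3* had 269, 294 and 311 in *Ctrl* against 389, 373 and 384 in *Tet iTKO* (log2 fold change 0.39, SE 0.10, limma adjusted p = 0.0023). Neither overlapped between groups, and neither passed after the GC and length correction, which gave 0.22 for *Tle1* and -0.081 for *Tle3*. Without *Ctrl* line 1 or *Tet iTKO* line 2, *Tle1* did not pass either (0.31 and 0.30). *Tle4* had 553 ± 65.6 (SD, n = 3) in *Ctrl* against 626 ± 21.9 (SD, n = 3) in *Tet iTKO*, a log2 difference of 0.19 (limma adjusted p = 0.086). Without *Ctrl* line 2 it was 0.28 (limma adjusted p = 0.018).

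The last pair are transcription factors known as direct Wnt targets. *Cdx1*, a caudal homeobox gene, had 163, 185 and 186 normalized counts in *Ctrl* against 254, 254 and 248 in *Tet iTKO*. The *Tet iTKO* lines lay close together above all *Ctrl* lines (log2 fold change 0.50, SE 0.12, limma adjusted p = 0.0015), and the change was 0.31 after the GC and length correction, which did not pass (limma adjusted p = 0.058). *Sp5*, the gene whose start region above holds the TCF/LEF motif, had 1, 1 and 5 in *Ctrl* against 8, 6 and 10 in *Tet iTKO*. It was under the filter, and although its groups did not overlap, limma with no filter gave an adjusted p of 0.087.

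Of the other genes of the pathway, a list of 88 that share no member with the 44, 87 were matched and 44 were tested. At an adjusted p under 0.05 (limma) 14 were higher (31.8%) and 3 lower (6.82%), beside the 16.4% and 18.4% of all genes, and the median log2 fold change was 0.16. This list was also chosen with earlier results of these data known, and its shares are descriptions. After the GC and length correction 8 of the 44 were higher and 6 lower, beside 13% and 14.1% of all genes. Of the 16 further ligands, 14 lay under the filter. *Wnt3a*, a ligand of the primitive streak, had 2, 8 and 5 normalized counts in *Ctrl* against 15, 33 and 14 in *Tet iTKO* (log2 fold change 1.88, limma adjusted p = 0.015). *Sfrp2*, a Wnt-binding antagonist, had 14, 18 and 28 in *Ctrl* against 81, 83 and 73 in *Tet iTKO* (1.98, limma adjusted p = 2.7e-06). All lines of *Tet iTKO* lay above those of *Ctrl* in both, and *Wnt3a* did not pass without *Ctrl* line 1 (1.45) or *Tet iTKO* line 2 (1.51). *Dact3*, a Dishevelled-binding protein, had 4, 27 and 20 against 38, 33 and 36 (1.35, limma adjusted p = 0.021). It did not pass without *Ctrl* line 1 (0.59), *Tet iTKO* line 1 (1.31) or *Tet iTKO* line 3 (1.35), nor after the correction (limma adjusted p = 0.24), whereas *Wnt3a* and *Sfrp2* passed after it. *Fzd9* had 22, 12 and 21 in *Ctrl* against 31, 43 and 37 in *Tet iTKO* (1.01, limma adjusted p = 0.033). After the correction its log2 fold change was 0.68 (limma adjusted p = 0.19), and it did not pass without *Ctrl* line 2 (0.74), *Tet iTKO* line 2 (0.90) or *Tet iTKO* line 3 (1.00). The streak gene *T*, a Wnt target, had 0, 12 and 1 in *Ctrl* against 24, 26 and 24 in *Tet iTKO* (3.11, limma adjusted p = 0.00097). Among the *Ctrl* lines only line 2 was above 1, and the log2 fold change was 4.18 without it and 2.33 without *Ctrl* line 1. *Wnt3a* and *T* had *Ctrl* means under 10 and passed the filter through *Tet iTKO*. Of the 6 tested genes listed there as transcription targets, *T* was the only 1 called higher, and their median log2 fold change was -0.04. *Eomes* (0.84), *Myc* (0.12), *Ccnd1* (-0.20), *Id2* (-0.50) and *Ascl2* (-0.58) did not pass (limma adjusted p = 0.091, 0.41, 0.15, 0.57 and 0.40).

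The 5 genes of that list with the highest means went in both directions. *Esrrb* and *Nanog*, both naive genes known to be repressed by TCF7L1, had 1252 ± 67.6 and 1260 ± 79.0 (SD, n = 3) normalized counts in *Ctrl* against 1524 ± 33.8 and 1022 ± 32.6 (SD, n = 3) in *Tet iTKO*. *Esrrb* rose by 0.28 on the log2 scale (limma adjusted p = 0.0003) and *Nanog* fell by 0.30 (limma adjusted p = 0.00038), and neither passed after the GC and length correction. *Klf2*, of the same group, did not pass (0.12, limma adjusted p = 0.074). *Ctbp2*, a corepressor, and *Tnks2*, which marks AXIN for degradation, rose by 0.22 and 0.26 (limma adjusted p = 0.0033 and 0.0036), and of these *Tnks2* passed after the correction (limma adjusted p = 0.019). The 3 lower genes of the list were *Nanog*, *Cby1* and *Aes*, and *Cby1* and *Aes* are named after their values were seen. *Cby1*, a nuclear antagonist of beta-catenin, had 242, 263 and 278 in *Ctrl* against 133, 163 and 158 in *Tet iTKO*. It fell by 0.79 on the log2 scale without overlap (limma adjusted p = 9.1e-06) and by 0.58 after the correction. *Aes*, a short Groucho-related protein, fell by 0.32 (limma adjusted p = 0.00076) and by 0.45 after it. Named in the same way, *Ror2* and *Med12* rose by 0.97 and 0.91 (limma adjusted p = 1.4e-05 and 0.0010), and both passed after the correction. *Ctnnbip1*, listed with *Cby1* and *Aes* as nuclear, did not pass (0.11, limma adjusted p = 0.61).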

How the data were processed

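RNA of sorted mESC was measured in 3 *Ctrl* and 3 *Tet iTKO* lines. The authors made Smart-Seq2 libraries (paired reads of 50 bases per the labels), aligned them with STAR (unique alignments only), ran HTSeq 0.7.1 for gene counts and divided these by DESeq2 1.26.0 size factors in R 3.5.2, with mm9 named in the submitters' processing notes. HTSeq ran with its stranded option, while Smart-Seq2 does not mark strand. The deposited values have the unit score, because they are such normalized counts rounded to whole numbers, not read counts. GENCODE M21 (GRCm38) gave symbols, lengths and GC contents for 20775 of 22380 identifiers, and the remaining 1605 had no symbol. All positions are GRCm38.

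The main test was limma 3.58.1 (lmFit, eBayes with trend, under R 4.3.3) on log2(normalized count + 1). It covered the 10524 genes averaging 10 or more, over which p was adjusted by Benjamini-Hochberg, and the pseudocount understates changes of low genes. Log2 ratios of 2 members used exact two-sided permutation tests. Start regions were read from the RefSeq table, using Python 3.11.15 with SciPy 1.17.1, pandas 2.3.3 and NumPy 2.4.6. The fit was run on simulated data with the same dispersion for every gene and no effect of GC content or length. It recovered 87 of 97 genes changed by 1 on the log2 scale and 98 of 98 changed by 2, and called 14 unchanged genes. Such data check the code and say nothing of calls for genes with a wider spread. The members and lists were chosen with earlier results of these data known. All 44 members are accounted for, with each line's value where a member passed or lay under the filter with any value above 3. Genes of the other list are named at an adjusted p under 0.05 with a log2 change at or beyond 1 either way, or among the 5 highest means. Any further genes named from that list were added after their values were seen. Tried as alternatives were a pseudocount of 0.5 or 4, a minimum mean of 50 or any mean above 0, quantile normalization, scaling by trimmed means of M values, a variance prior with no trend, a loess correction (span 0.3) for GC content and length, a block for the replicate number with and without it, and fits without each line. The floor of 3 normalized counts covers counting error only, since reads amplified by PCR and lacking molecular identifiers are not independent.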

Additional observations from a re-analysis of the deposited data

How the results depend on the processing

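Of 34 members tested, 17 were higher in *Tet iTKO*, and 10 with the correction for GC content and length, with or without the replicate block. It was 12 of 34 with eBayes without the trend and 13 of 44 with no filter. Over all 10524 genes, 1731 were higher, and 1367 with the correction, 1406 with correction and block, and 1075 without the trend. With no filter 1582 of 16064 genes were higher. The count of members lower was 2, and 1 with quantile normalization, 4 with that correction (both fits) and 0 with eBayes without the trend. In that last fit limma called 2 at an unadjusted p under 0.05. Over all genes 1934 were lower, and 1761, 1480 (1518 with the block) and 1217 in these fits. Leaving out each line gave 13 to 17 members higher, 1 to 2 lower and a median of 0.30 to 0.42, against 0.39 with all lines and 0.23 after the correction (both fits). Over all genes, the fits without a line called 1335 to 1635 higher and 1642 to 1722 lower. For the other pathway genes, 14 higher of 44 tested became 9 of 33 with a mean of at least 50, where 1332 of 7819 genes were higher. It became 8 both with eBayes without the trend and with the correction (both fits), and 11 to 14 without each line. The 3 lower became 1 without the trend, 6 with the correction (both fits) and 3 to 5 without each line. Direction turned in 6 members under the correction, to -0.26 for *Dvl2*, -0.050 for *Pygo2* and -0.081 for *Tle3*, with and without the block, and to -0.071 for *Dvl1*, -0.032 for *Fzd7* and -0.13 for *Gsk3a*, which passed in neither fit. *Sfrp1*, *Fzd3*, *Fzd10* and *Apc*, which passed in no fit without a line, changed sign in some of these, *Sfrp1* and *Fzd3* also with quantile normalization. Calls ended without the trend for *Porcn*, *Wls*, *Fzd5*, *Lrp5*, *Csnk1a1*, *Ctnnb1*, *Pygo2* and *Tle1*, where *Lrp6* passed, and with no filter for *Wls*, *Lrp5*, *Znrf3*, *Dvl3* and *Pygo2*. With quantile normalization the calls of *Znrf3*, *Dvl3* and *Csnk1a1* ended, while *Dvl2* and *Tle4* passed as higher. The calls of *Wnt8a*, *Notum*, *Axin2*, *Bcl9*, *Bcl9l*, *Lef1* and *Tcf7* passed in every alternative that could be run for them, up to 16 each, and *Wnt8a* has no value at a mean of at least 50. Replicate numbers showed no pairing of the lines in these values: deviations of same-numbered lines correlated at 0.001, -0.005 and -0.003. In the fit with the replicate block 18 members were higher and 2 lower, the addition being *Dvl1*. Tests of read counts were planned and not run, since the values are not read counts. Depth limits the 10 members under the filter.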

Other observations

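Outside the comparisons above, 2 secreted regulators of the pathway that lay under the filter were picked after their values were seen. *Rspo1*, an R-spondin that protects Frizzled receptors from ZNRF3 and RNF43, had 1, 0 and 1 normalized counts in *Ctrl* against 22, 9 and 21 in *Tet iTKO*. *Dkk3*, a Dickkopf family member, had 6, 1 and 3 in *Ctrl* against 22, 13 and 14 in *Tet iTKO*. In both genes every *Tet iTKO* line lay above the *Ctrl* lines. The R-spondin receptor *Lgr4* had 169 ± 19.7 (SD, n = 3) in *Ctrl* against 163 ± 49.0 (SD, n = 3) in *Tet iTKO*, which overlap, and *Lgr5* was at 0 in every library.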
